A study of Mus musculus with 3 samples.

Results

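Dense RXRα clusters are stretches of the mouse liver genome in which at least 6 regions that passed a threshold of RXRα over input lie close together. The members were chosen from the RXRα and input signals themselves. After scaling of the tracks to an equal mean, a 32 bp bin passed if its RXRα signal reached 20 times the input of that bin, or 20 times the mean input where this was larger, and passing bins within 200 bp formed a region. Regions with gaps of at most 12500 bp were stitched together. Of all 32 bp bins of the genome, 0.216% passed the 20-fold threshold. They formed 42117 regions in 18889 stitched clusters, counting single regions, and 1401 of these clusters held 6 or more regions. The 1401 dense clusters contained 12248 regions, or 29.1% of all regions (95% Wilson interval 28.6 to 29.5%). The other regions were 19350 in 6969 clusters of 2 to 5 regions and 10519 that stood alone.

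The chromatin came from livers of male wild type C57BL/6 mice with an age of 3 months. There were 3 ChIP-seq libraries, namely 1 with an antibody against RXRα, 1 from input chromatin without antibody, and 1 with an antibody against RARα (Santa Cruz sc-551x). No treatment and no genetic change is named for these mice, and the number of livers per library is not stated. The RXRα and input tracks corresponded to 9999939 and 9999292 reads, and the RARα data were a list of 32946 peaks with a score greater than 20. With 1 library per antibody there is no replicate, so no test between groups was possible, and all intervals below cover counting error only.

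RXRα is the partner with which many nuclear receptors bind DNA, among them PPARα, FXR, LXR, PXR and the retinoic acid receptors. These pairs recognise copies of a short half-site related to AGGTCA, and the spacing and orientation of the copies favour one pair over another, with a spacing of a single base best known from PPARα. In the liver RXRα partners control lipid, bile acid, glucose and drug metabolism, and groups of neighbouring binding sites are known from many tissues to lie close to genes that define the cell type. Whole liver holds several cell types, so fewer cells of a type and less binding per cell cannot be told apart in these data.

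The sequence at the summit of the strongest region is given here for a few clusters as examples. For the Ptpn1, Por, Scarb1 and Fgg clusters, which are described below, 101 bases around the summit of the strongest region are printed from the NCBI37/mm9 genome. Capitals mark half-sites, defined as AGGTCA or GGGTCA or AGTTCA or GGTTCA on either strand. The window in the Ptpn1 cluster held 2 half-sites, those in the Por and Fgg clusters held 1 each, and the window in the Scarb1 cluster held 2.
Ptpn1, chr2:167668126-167668226, plus strand: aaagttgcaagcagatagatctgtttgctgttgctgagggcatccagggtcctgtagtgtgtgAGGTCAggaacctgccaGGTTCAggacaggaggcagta
Por, chr5:136171294-136171394, plus strand: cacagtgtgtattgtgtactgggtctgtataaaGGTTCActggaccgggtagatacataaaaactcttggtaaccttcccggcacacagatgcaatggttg
Scarb1, chr5:125799902-125800002, plus strand: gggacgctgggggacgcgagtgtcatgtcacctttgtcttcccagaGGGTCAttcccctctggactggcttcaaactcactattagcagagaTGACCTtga
Fgg, chr3:82842974-82843074, plus strand: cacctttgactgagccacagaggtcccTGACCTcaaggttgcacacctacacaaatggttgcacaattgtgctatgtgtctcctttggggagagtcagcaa

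In contrast, the summit windows of the Pim3 cluster, which ranked first, and of the Tob1 cluster held 0 half-sites by the same definition. They are shown because the summit of a strong region need not hold a recognisable half-site. These regions were 1056 bp (Pim3) and 1024 bp (Tob1) wide, and half-sites were searched only within 100 bp of the summit.
Pim3, chr15:88698526-88698626, plus strand: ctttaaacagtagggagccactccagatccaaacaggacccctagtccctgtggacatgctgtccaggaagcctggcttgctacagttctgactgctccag
Tob1, chr11:93996254-93996354, plus strand: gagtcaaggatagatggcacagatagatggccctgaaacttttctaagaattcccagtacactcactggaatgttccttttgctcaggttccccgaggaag

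A direct repeat of 2 half-sites with a spacing of 1 base, called DR1, was found within 100 bp from the summit in 180 of the 12248 regions of dense clusters, or 1.47% (1.27 to 1.70%). Among all RXRα regions the share was 1.45%, and it was 1.61% among single regions (1.38 to 1.87%), so the clusters did not stand out by this motif. Sites from clusters of high rank and from all 3 lower ranking clusters with more than 1 region with a DR1 are printed below with 8 bases on either side, capitals marking both half-sites and the minus strand being given as its reverse complement. Sites that overlap an untranslated region were left out. The regions with the printed sites ranged from 5.40 RXRα reads (Pbld1 downstream) to 355 (Herpud1), so a site in a cluster of high rank need not lie in a strong region. The Zmiz1 site, for example, lay in a region with 10.8 reads. The G6pc site lies in a run of AGGTCA copies with the same spacing, and the site at Tmem189 near Cebpb consists of a pair of AGGTCA copies separated by an A. The sites of Pbld1, which lie in the same cluster, are identical over all printed bases.
Zmiz1, chr14:26363402-26363430, plus strand: ctcagcagAGTTCAtAGGTCAatgtggga
Scarb1, chr5:125841275-125841303, minus strand: atcagttcGGGTCAcGGGTCAtgaccagc
Fga, chr3:82820999-82821027, minus strand: ggctccctGGTTCAtGGTTCAgtctctgt
Ttpal, chr2:163424001-163424029, minus strand: atttgtggAGGTCAgGGGTCAactcacag
G6pc, chr11:101212616-101212644, minus strand: caggtcacAGGTCAcAGGTCAgatgtggc
Aldh1l1, chr6:90452857-90452885, plus strand: ttttccagAGTTCAaAGGTCAttgctggg
Tmem189 near Cebpb, chr2:167517562-167517590, plus strand: gcaggagtAGGTCAaAGGTCAaaggcttt
Mtus1, chr8:42221080-42221108, minus strand: agcattcaAGTTCAgAGGTCAggaacatg
Herpud1, chr8:96888056-96888084, minus strand: tgaactagGGTTCAgAGTTCAgaatctga
Mgll upstream, chr6:88667536-88667564, minus strand: ttgacagcAGGTCAcAGGTCAgagctgcc
Mgll intron, chr6:88683410-88683438, minus strand: taaaatgtGGGTCAaGGGTCAtcttgtaa
Lasp1 upstream, chr11:97659900-97659928, minus strand: tccgttgaGGGTCAaGGGTCAatcaaaaa
Lasp1 intron, chr11:97669991-97670019, minus strand: caaacactGGGTCAaAGGTCAaaaggtca
Fbxo47 intron, chr11:97727592-97727620, plus strand: catggatgGGGTCAcAGGTCAccaagcaa
Pbld1 upstream, chr10:62514915-62514943, minus strand: cagaggagGGGTCAaAGGTCAggaaaata
Pbld1 downstream, chr10:62530143-62530171, minus strand: cagaggagGGGTCAaAGGTCAggaaaata

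A family that requires caution is that of the major urinary protein (Mup) genes on chromosome 4, which encode pheromone-binding proteins that the liver of male mice secretes in large amounts. Below, 81 bases around the summit of the strongest region in the Mup11 cluster are printed, with the half-site in capitals, followed by the best ungapped match in 3 other Mup clusters, in which capitals mark only bases that differ from Mup11. The Mup7 stretch was identical to that of Mup11 at 81 of 81 bases, the Mup17 stretch at 80 and the Mup19 stretch at 77.
Mup11, chr4:60694760-60694840, plus strand: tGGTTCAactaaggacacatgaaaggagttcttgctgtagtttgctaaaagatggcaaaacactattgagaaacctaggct
Mup7, chr4:60102905-60102985, plus strand: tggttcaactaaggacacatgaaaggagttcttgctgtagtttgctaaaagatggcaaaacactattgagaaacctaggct
Mup17, chr4:61273472-61273552, plus strand: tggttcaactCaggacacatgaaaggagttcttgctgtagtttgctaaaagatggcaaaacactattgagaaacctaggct
Mup19, chr4:61438863-61438943, minus strand: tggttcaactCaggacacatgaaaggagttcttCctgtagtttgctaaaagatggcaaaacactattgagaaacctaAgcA

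The first 8 clusters by rank had between 13 and 34 regions. Rank was set by the RXRα reads minus input reads summed over the regions of a cluster. This sum comes from the same 2 signals whose ratio defined the regions, so these levels are a description. The cluster with the highest sum carries the name of Pim3, a serine/threonine kinase, and lies at chr15:88658113-88707104. It held 21 regions with 2876 RXRα reads (exact Poisson interval 2771 to 2983) against 81.2 input reads, which leaves 2794. Of these regions 15 were nearest to Pim3 and 6 to Creld2. RXRα was spread over several strong regions. The strongest contained 522 reads at 5544 bp downstream of the Pim3 start site, and another, at 13944 bp, had 518 reads and the highest RXRα over input of the cluster (282-fold).

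Ptpn1, a tyrosine phosphatase that dampens insulin signalling, gave its name to the second cluster, which had 30 regions and 2645 reads after subtraction. This cluster spanned 89.8 kb at chr2:167624865-167714624, entirely upstream of Ptpn1. Its strongest region, 89125 bp upstream, contained only 11.1% of the reads, the lowest such share of all dense clusters. Por, the electron donor of microsomal cytochrome P450 enzymes, had the third cluster, with 23 regions and 2264 reads at chr5:136142977-136220064. Of its regions 14 were nearest to Por and 9 to Tmem120a, and 21 lay in introns. The last one lay 221 bp from the Tmem120a start site. The strongest, with 487 reads, lay in an intron 25297 bp downstream of the Por start site. The fourth cluster belonged to Ppara, the receptor that drives fatty acid oxidation and itself a partner of RXRα. It had 27 regions and 2038 reads at chr15:85533729-85618240, and 24 of the regions were nearest to Ppara. The strongest Ppara region lay at the distal end of the cluster, in an intron and 24047 bp from the start site of 2210021J22Rik. Zmiz1, which encodes a transcriptional coactivator, had the cluster with the most regions of all, namely 34 with 1976 reads, and all 34 were nearest to this gene. These regions ranged from 2.60 to 265 RXRα reads, and weak and strong regions counted alike.

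Scarb1, the receptor that takes up cholesterol from high density lipoprotein, followed with 21 regions and 1814 reads over 87.2 kb. Its strongest region (262 reads) lay in an intron 21560 bp from the start site. The seventh cluster covered the 3 fibrinogen genes, which encode the chains of the clotting protein made in hepatocytes. It held 29 regions and 1726 reads, with 10 regions nearest to Fgg, 10 to Fga, 8 to Fgb and 1 to Plrg1. Tob1, an antiproliferative gene, had 13 regions and 1643 reads within 31.9 kb, and the strongest lay 76768 bp upstream of the start site, the nearest of any protein-coding gene. These 8 loci therefore differed in layout, since the regions of the Por, Scarb1 and Zmiz1 clusters were mostly in introns while those of Ptpn1 and Tob1 were distant and upstream.

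**Figure D1:**
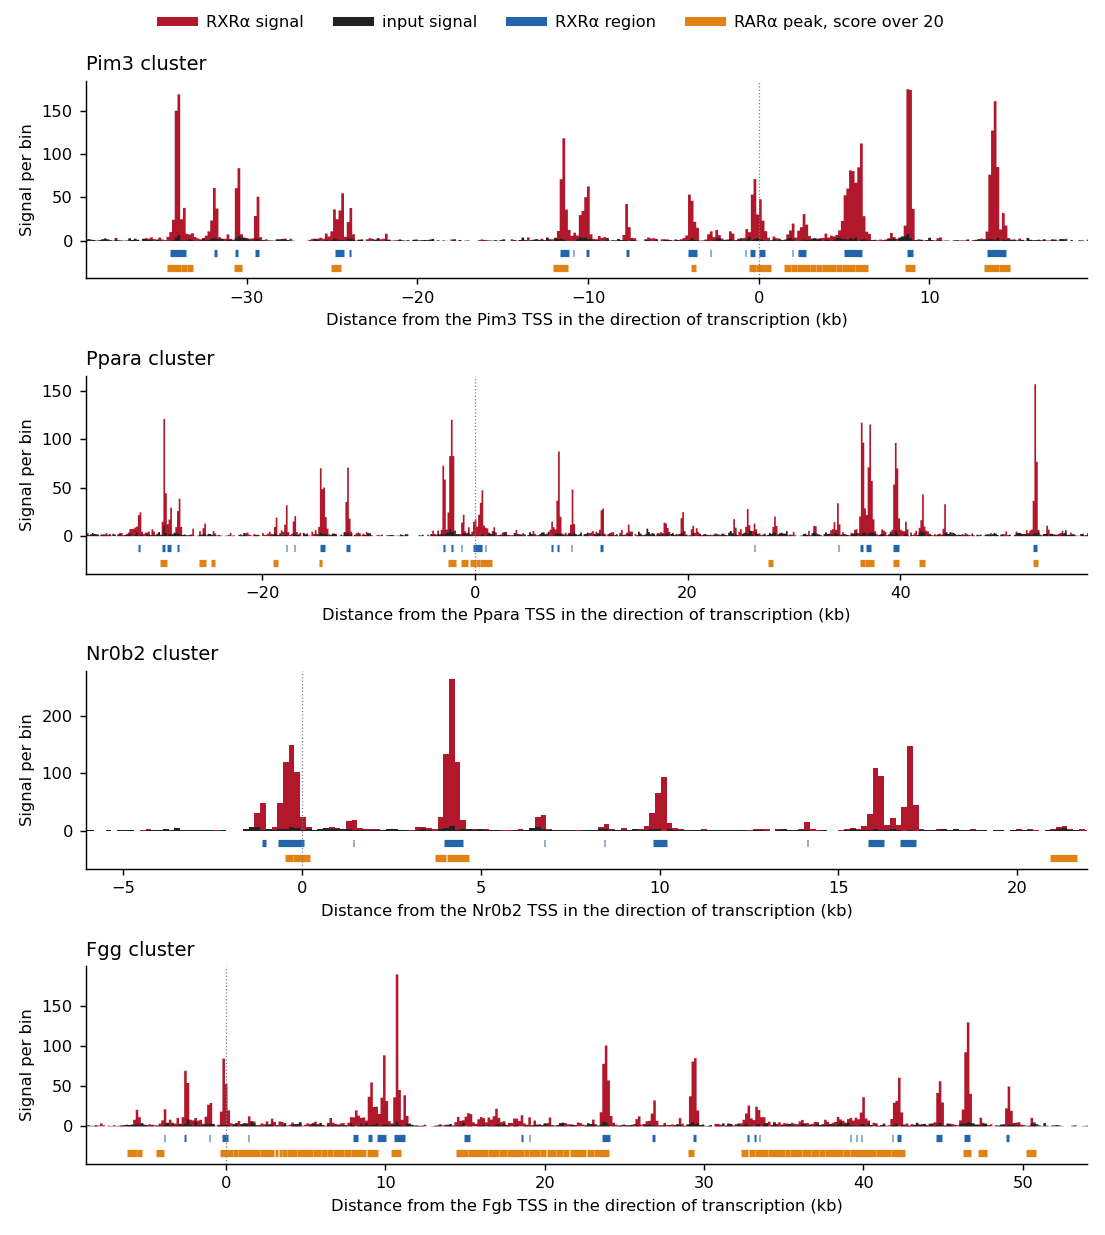
RXRα (red) and input (black) signal per 32 bp bin, averaged over 5 bins, in the Pim3, Ppara, Nr0b2 and Fgg clusters, by distance in kb from the start site named on each axis (dotted line, transcription to the right). Blue bars are RXRα regions and orange bars RARα peaks; RARα peaks lie on 2 of the 10 regions at Nr0b2, whereas at the fibrinogen genes they lie on 21 of 29 and also run on between the regions.

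Ranks 9 to 20 included several regulators and enzymes. Nr0b2 (SHP), the receptor without a DNA-binding domain that represses bile acid synthesis, was in place 10 with 10 regions and 1585 reads in only 18.3 kb. The cluster of Ttpal, rank 11, extended into Hnf4a, a master regulator of hepatocyte genes, and its strongest region lay in a Hnf4a intron. Rank 12 was the cluster of Wdr5, which had 10 regions nearest to Wdr5 and 4 nearest to Rxra, the gene of RXRα itself. G6pc, which releases glucose from the liver, ranked 13 with 14 regions, the pair of Aldh1l1 and Klf15 ranked 14 with 23 regions, and Nr1i2 (PXR), the xenobiotic receptor, ranked 15 with 10 regions. Apoa1 shared its cluster at rank 18 with Apoc3 and Apoa4, the genes of apolipoproteins, and 20 of the 23 regions were nearest to Apoa1. Others were 9130230L23Rik with Rbm47 at rank 9, Tgm2 at 16, Poc1a with Alas1, the rate-limiting enzyme of heme synthesis, at 17, and Sdsl with the serine dehydratase gene Sds at 20.

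The 20 highest clusters held 5.74% of the summed reads of all dense clusters, so the signal was not confined to a few loci. When RXRα minus input was summed over the whole span of a cluster instead of its regions, 13 of these 20 stayed among the first 20. Number of regions and reads ranked alike only in part, with a Spearman rho of 0.575 across the 1401 clusters, which share the same library. After Zmiz1, Ptpn1 and Fgg, the clusters with the most regions were Mtss1, a regulator of the actin skeleton, with 28 regions but rank 61, and Ppara with 27. The cluster of Rara, the gene of RARα, also had 27 regions and ranked 160 with 750 reads. The opposite case was Ptgds at rank 21, a prostaglandin synthase gene whose cluster had only 7 regions and the highest RXRα over input of all dense clusters (765-fold).

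**Figure D2:**
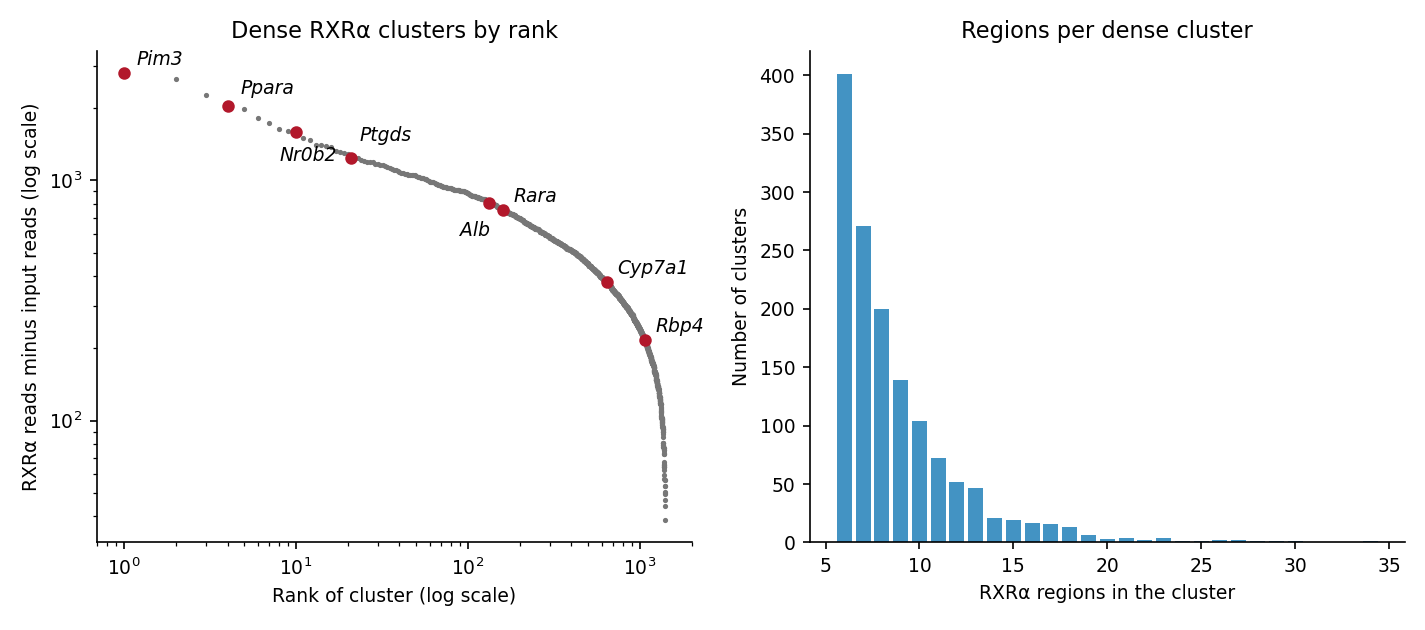
Left, RXRα reads minus input reads of each of the 1401 dense clusters against its rank, both on log scales, with the best ranked cluster of 8 genes marked in red. Right, number of clusters by the number of RXRα regions they hold; 401 clusters had exactly 6 regions and 23 had 20 or more.

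The typical dense cluster was much smaller than these. It held a median of 8 regions (range 6 to 34) within 26.0 kb (range 4.19 to 108 kb), with 348 reads after subtraction (range 38.6 to 2794), and its strongest region contained a median of 36.5% of its RXRα reads (range 11.1 to 83.5%). The median gap between neighbouring regions was 2304 bp, and 73.1% of the gaps were at most 5000 bp. Together the clusters spanned 40028 kb, or 1.51% of the genome, but only 5.15% of that length was inside a region. RXRα per bin was 5.30 times the genome mean in the gaps between the regions. Input was also high there, at 2.0 times the genome mean. At the limit set by the rule, the 401 clusters with exactly 6 regions had a median of 236 reads (range 38.6 to 1062), and the 581 clusters with exactly 5 regions, just outside, had 181 (range 24.8 to 908).

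Dense clusters lay close to genes but not mainly at promoters. The median distance of their regions to the nearest protein-coding start site (TSS) was 13120 bp, compared with 20307 bp for regions in clusters of 2 to 5 and 32108 bp for single regions. Within 10 kb of a TSS were 42.4% of the regions of dense clusters (41.5 to 43.3%) and 26.6% of the single regions (25.8 to 27.5%). The order was the opposite within 1 kb, where 1294 regions of dense clusters (10.6%) and 1382 single regions (13.1%) were found. More than any other place, regions of dense clusters were in introns, with 52.6%, against 42.6% of single regions. A total of 574 dense clusters had no TSS in their span, 588 had 1 and 239 had more. All regions were nearest to the same gene in 869 clusters.

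The clusters were unevenly spread over the chromosomes. Chromosome 19 had 10.4 clusters per 10 Mb and chromosome 11 had 9.03, while chromosome X had 0.480, which corresponds to 8 clusters. Per 100 protein-coding genes the X chromosome still had 0.858 clusters, whereas the autosomes had between 3.47 (chromosome 7) and 9.0 (chromosome 4). Of the 660 regions on X, 8.48% were in dense clusters (6.59 to 10.9%), against 29.4% of those on the autosomes (29.0 to 29.9%). The livers were from males, and input per bin on X was 0.546 times that on the autosomes. The part of this lower coverage in the count on X was not tested.

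RARα peaks came from a separate library and were not used to choose the clusters. Of the regions in dense clusters, 32.2% carried a RARα peak with a score greater than 20 (31.4 to 33.0%), where at least 25% of the narrower interval overlapped. Among all RXRα regions the share was 25.1%, in clusters of 2 to 5 regions it was 24.2% (23.6 to 24.8%), and among single regions 18.3% (17.6 to 19.1%). The median score of those peaks was 32 in dense clusters and 34 at single regions, but what the score measures is not stated in the file. In total 1219 of the 1401 clusters had a RARα peak on at least 1 region and 182 had none, and at least 50% of the regions carried one in 311 clusters. The strongest region of a cluster carried a RARα peak in 49.5% of clusters (46.9 to 52.2%), the other regions in 29.9% (29.1 to 30.8%). The strongest region was picked by its summed reads, and differences in width between regions were not taken into account.

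Regions in dense clusters were also stronger in RXRα than single regions, with a median highest enrichment of 38.0-fold against 31.7-fold, so the shares were compared at like enrichment. Between 20-fold and 30-fold, 25.9% of regions in dense clusters (24.6 to 27.2%) and 17.7% of single regions (16.7 to 18.8%) had a RARα peak. At 80-fold or more it was 46.0% (43.7 to 48.3%) and 24.6% (21.6 to 27.8%). Distance to the TSS made a larger difference. Within 1 kb, RARα peaks were on 69.7% of regions of dense clusters (67.1 to 72.1%) and on 66.6% of single regions (64.0 to 69.0%), and these intervals overlap. Beyond 50 kb the shares were 26.5% (24.7 to 28.4%) and 8.60% (7.78 to 9.5%). The excess of RARα peaks in dense clusters was therefore seen away from promoters.

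Input also moved with RARα. Within 1056 bp around the summit, input was a median of 2.61 times the genome mean in regions of dense clusters and 1.76 times at single regions. In dense clusters it was 3.07 times in regions with a RARα peak and 2.41 times in regions without. At an input between 2 and 4 times the mean, 34.6% of regions in dense clusters and 26.2% of single regions had a RARα peak, and at 4 times or more it was 49.0% and 39.1%. The difference between the classes was smaller than without this split but remained in all 4 input bands.

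**Figure D3:**
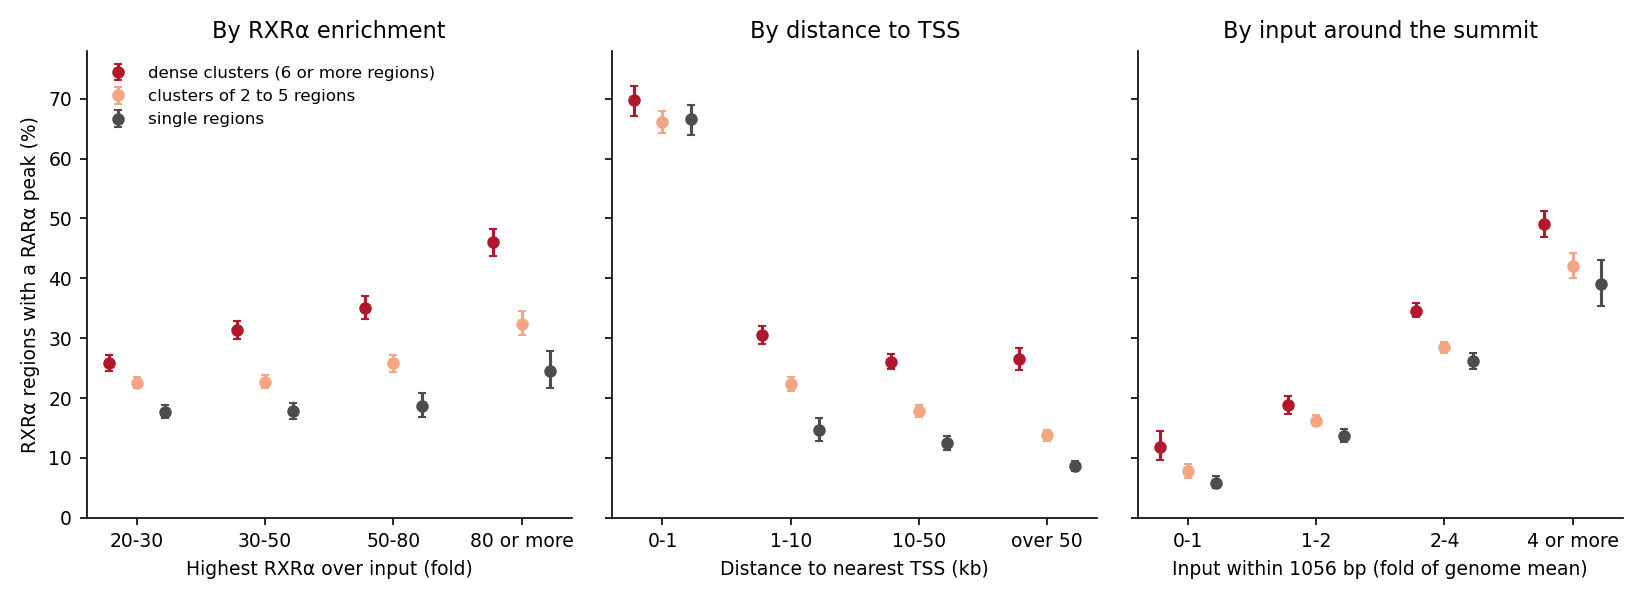
Percentage of RXRα regions with a RARα peak in dense clusters (red), clusters of 2 to 5 regions (light) and single regions (grey), by highest RXRα over input, by distance to the nearest TSS in kb and by input around the summit; bars are 95% Wilson intervals, which treat neighbouring regions as independent. Dense clusters lie above single regions in every band, with overlapping intervals only within 1 kb of a TSS (69.7% and 66.6%).

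The share with RARα peaks differed widely between the highest clusters. Among the first 50, it was highest in the clusters of Poc1a with Alas1 (7 of 8 regions), Tob1 (11 of 13), Herpud1, a stress protein of the endoplasmic reticulum (10 of 12), Fgg (21 of 29), and Slc25a10 with Gcgr, the glucagon receptor (13 of 20). Low shares outside the Mup genes were found in the clusters of Ptgds (1 of 7), Ehhadh, an enzyme of peroxisomal fatty acid oxidation (1 of 6), Tsku (3 of 17) and 2010305A19Rik (3 of 16). Nr0b2 and G6pc were also low, with 2 of 10 and 3 of 14 regions. In the whole set 4 clusters had a RARα peak on every region, and they were named after the data were seen. They were those of Frmd8 with 17 regions, Podn with 9, Acsl1, which activates long-chain fatty acids, with 13, and the clock output gene Dbp with 6. The Frmd8 cluster contains Neat1, an abundant nuclear non-coding RNA that was not counted as a gene here.

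Many RARα peaks in these spans did not sit on RXRα regions. The dense spans held 6154 RARα summits, 18.7% of all with a score greater than 20. Of these, 3766 or 61.2% overlapped an RXRα region, 27.6% lay elsewhere inside a protein-coding gene, and 11.2% lay elsewhere between genes. The clusters with the most RARα summits, also named after the data were seen, were Acsl1 at rank 294 with 49, and Fgg, Igf1 and Sdc4 with 48 each. At Acsl1 36 of the 49 summits, at Igf1 30 of 48 and at Fgg 26 of 48 lay in a gene but off the RXRα regions. RARα peaks thus formed long runs along these genes, which hepatocytes are known to express. No input belonging to the RARα library was analysed here, and the part of gene activity in these runs was not tested.

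RARα peaks of score greater than 20 were found on no region of the Mup clusters. Clusters without such a peak were not limited to these genes, since 162 of the 182 were not of mostly repeated sequence. There were 16 Mup clusters, between rank 24 (Mup11) and rank 880, and 7 were among the first 50. Their 147 regions included 0 with a RARα peak of score greater than 20 and 7 with a peak of any score. In 15 of these clusters, at least 50% of the 31-base words at the bins of the regions occurred more than once in the genome. Reads from identical stretches cannot be told apart, so the reads, ranks and numbers of regions of single Mup clusters are uncertain. Of the 273 regions of dense clusters that consist of repeated words alone, which include Mup regions, 2.93% had a RARα peak (1.49 to 5.67%), against 33.5% of the 11154 without a repeated word. Outside dense clusters, regions of repeated words alone had a RARα peak in 2.15% of 698 cases in clusters of 2 to 5 and in 0.983% of 407 cases among single regions. Whether the RXRα and RARα reads were filtered differently for repeats was not tested. Without the 27 clusters of mostly repeated sequence, 42.7% of the regions of the remaining 43 first-ranked clusters had a RARα peak (39.2 to 46.3%), compared with 39.1% of all first 50, and 32.1% of those from rank 51 on (31.3 to 33.0%).

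Half-sites were more frequent at the summits of dense clusters than 1 kb away, but not more frequent than at single regions. At least 1 half-site lay within 100 bp of the summit in 65.5% of their regions (64.7 to 66.4%), in 68.9% of single regions (68.0 to 69.7%), and in 39.3% of the windows of equal length 1 kb away from regions of dense clusters. For DR1 the share in windows 1 kb away was 0.253% (0.198 to 0.324%), which is lower than the 1.47% at the summits. When 1 mismatch to a pair of AGGTCA copies was allowed, DR1 was found in 3.22% of regions in dense clusters and in 3.19% of single regions. Of the 9 spacings from 0 to 8 bases, a spacing of 1 was the most frequent and direct contact of the half-sites (1.20%) the next. An inverted repeat with a spacing of 1 base, the arrangement best known from FXR, was found in 0.294% of regions in dense clusters (0.212 to 0.407%) and in 0.608% of single regions (0.477 to 0.776%).

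**Figure D4:**
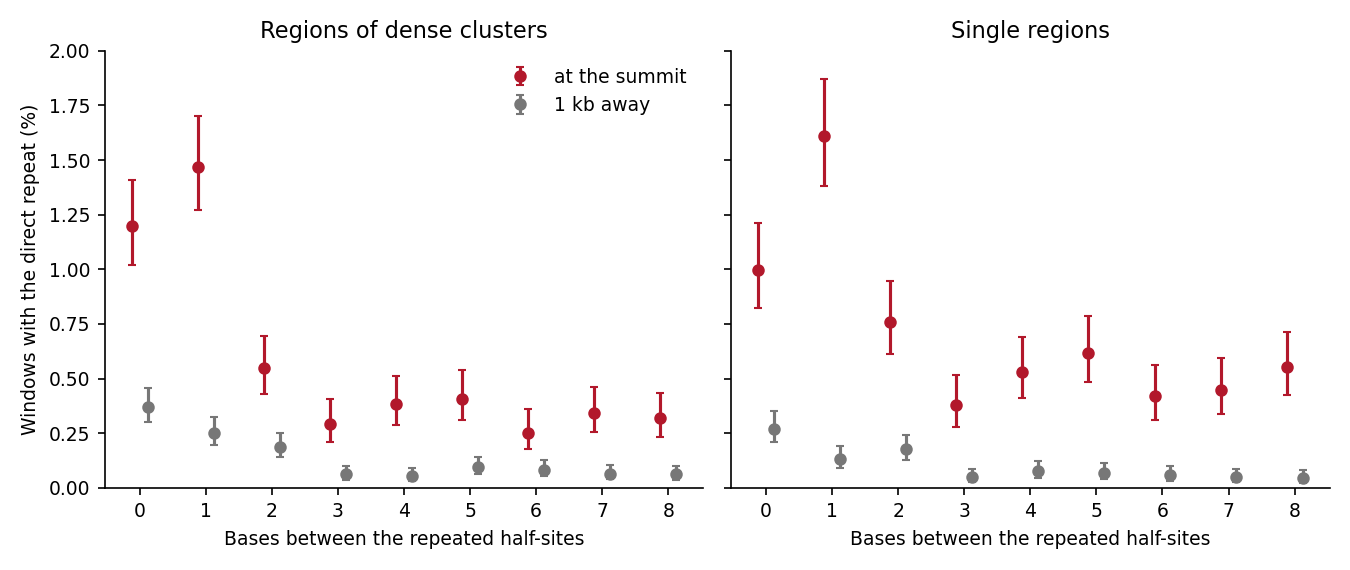
Percentage of 201 bp windows with a direct repeat of half-sites by the number of bases between them, at the summits (red) and 1 kb away (grey), for regions of dense clusters and for single regions, with 95% Wilson intervals. A spacing of 1 base is highest at both, with 1.47% and 1.61%.

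DR1 was spread thinly over the clusters. A DR1 occurred in 175 dense clusters, of which that of B230217C12Rik and Lasp1 had the most, with 3 of its 17 regions, and those of Mtus1, Pbld1 and Mgll, a lipase that degrades monoglycerides, had 2 each. RARα peaks were on 21.1% of the 180 regions with a DR1 (15.8 to 27.6%) and on 32.3% of those without. The same direction was seen for any half-site, with 28.9% against 38.5%, although median RXRα enrichment was higher with a half-site (39.8-fold against 33.2-fold). Distance to the TSS was not taken into account here. Within 1 kb of a TSS, 0.541% of regions of dense clusters had a DR1 and 69.7% a RARα peak. Between 1 and 10 kb it was 1.67% and 30.5%. The motif of CEBP factors (TTGCNNAA) was in 14.9% of regions of dense clusters and in 18.1% of single regions, that of FOXA factors (TGTTTAC) in 5.89% and 6.99%, and the NF1 motif (TTGGC) in 46.2% and 47.1%. In windows 1 kb away from regions of dense clusters these 3 motifs had shares of 7.65%, 2.91% and 30.5%. The remaining motifs searched were AP-1 (TGANTCA) with 7.95%, E-box (CACGTG) with 5.40%, SP1 (GGGCGG) with 9.46% and HNF1 (GTTAAT) with 7.20% of regions in dense clusters, and their shares 1 kb away were 6.01%, 2.91%, 5.29% and 5.75%. Among single regions these motifs had shares of 8.17%, 4.47%, 10.3% and 8.24%. Only the E-box had a higher share in dense clusters (5.01 to 5.81%) than at single regions (4.09 to 4.88%). The E-box share 1 kb away was also higher for dense clusters, with 2.91% (2.71 to 3.13%) against 2.39% (2.19 to 2.60%) for single regions. Windows 1 kb away can reach a neighbouring region in dense clusters, where 28.0% of the gaps were at most 1000 bp. Single regions have no such neighbour, so whether the difference is particular to the summits cannot be told from these windows.

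Genes near dense clusters were counted in lists of genes that hepatocytes are known to use. Of 22380 protein-coding genes, 2005 were the nearest gene of at least 1 region of a dense cluster, which is 8.96%. A gene takes the rank of its best ranked cluster, even where other genes are nearest to most of the regions. Among genes of nuclear receptors the number was 16 of 32, led by Ppara, Nr0b2, Hnf4a and Rxra. Rxra was nearest to 22 regions across its dense clusters, of which 12 had a RARα peak, and Rara to 16, of which 4 had one. Nr1d1 (REV-ERBα), the receptor that couples the clock to metabolism, had a RARα peak on 6 of its 6 regions. Rxrb, Rxrg, Rarb, Rarg, Nr1h2, Nr1h3 and Vdr were not nearest to any region of a dense cluster. For transcription factors of hepatocytes, 19 of 26 were dense cluster genes, with Klf15 at rank 14, Cebpb at 36 and Bcl6 at 87. The cluster at rank 87 held 6 regions. Bcl6 was nearest to 18 regions across its dense clusters, of which 15 had a RARα peak.

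Of the lipoprotein and sterol genes 22 of 36 were dense cluster genes, including Scarb1, Apoa1 and Apoc1. Apob and Mttp had regions within 10 kb but none in a dense cluster. Among fatty acid oxidation and uptake genes the number was 24 of 42, with Acsl1 at rank 26 for its better of 2 clusters and Ehhadh at 44. Pdk4, a kinase that spares glucose in fasting, was nearest to 10 regions at rank 265, none of which had a RARα peak. Lipogenesis genes were dense cluster genes in 12 of 22 cases, led by Dgat2 and Mlxipl, the carbohydrate-responsive factor ChREBP. Fasn, the fatty acid synthase, was not among them although 8 regions were nearest to it. Bile acid genes reached 11 of 19. After Nr0b2 they were led by the transporters Abcc2 and Abcb4, and Cyp7a1, the rate-limiting enzyme of bile acid synthesis, had a cluster of 6 regions with 377 reads at rank 645.

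Of the glucose, insulin and growth genes 26 of 34 were dense cluster genes. G6pc, Errfi1, which restrains the EGF receptor, and Igf1, the growth factor that the liver releases under growth hormone, led this list. Errfi1 held its place through the Slc45a1 cluster, in which only 1 of the 11 regions was nearest to Errfi1. Igf1 was nearest to 26 regions across its dense clusters. Plasma protein genes followed the fibrinogen genes with Alb and Afp in 1 cluster of 11 regions at rank 133, and 29 of 50 were dense cluster genes. Of the drug and xenobiotic genes 13 of 27 were dense cluster genes, headed by Por and Alas1. The place of Alas1 came from the Poc1a cluster, in which only 1 of the 8 regions was nearest to Alas1. Of the clock genes 6 of 15 were dense cluster genes, headed by Tef and Bhlhe40. Of the retinoid handling genes, which transport, store or oxidise vitamin A, 8 of 25 were dense cluster genes. They included Retsat, Adh7, Dhrs3 and Rbp4, the plasma carrier of retinol. Adh7 was nearest to 7 regions, and all 7 had a RARα peak. Cyp26a1, the enzyme that breaks down retinoic acid, was nearest to 9 regions but to none in a dense cluster.

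Marker genes of other cells were counted in the same way. The number was 0 of 14 for stellate cells, 0 of 13 for Kupffer cells, 0 of 14 for neurons and 0 of 14 for muscle, where the upper limits of 21.5 to 22.8% include the 8.96% of all protein-coding genes. It was 1 of 10 for cholangiocytes (Sox9) and 1 of 12 for liver endothelial cells (Lyve1), which are shares near that of all genes. Any RXRα region lay within 10 kb of 5 of the 10 cholangiocyte genes and 8 of the 12 endothelial genes. In each of the other lists of this paragraph it was at most 3 genes. The lists share some genes, such as Nr0b2 and Rbp4, and they were assembled with earlier results of these data known, so the shares describe the clusters and do not compare the lists. The width of the intergenic neighbourhood of a gene was not taken into account, and gene families with near-identical copies, such as Acot, are uncertain.

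**Figure D5:**
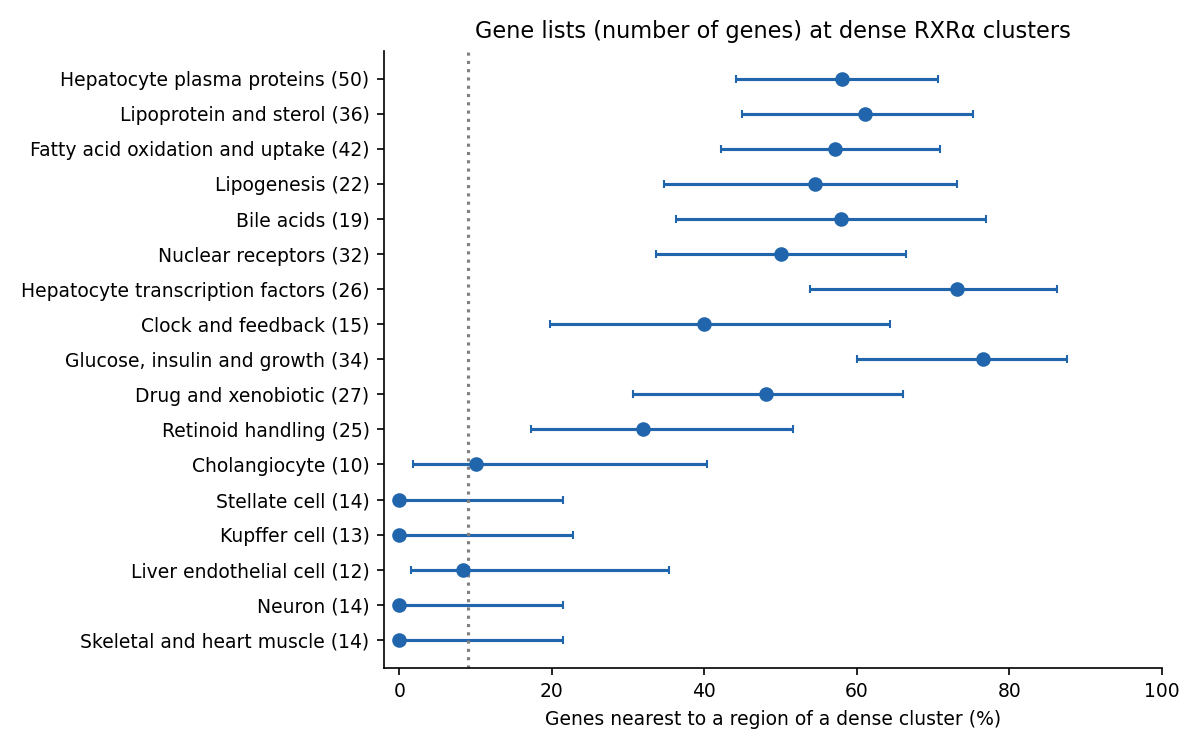
Percentage of the genes of each list that are nearest to at least 1 region of a dense cluster, with 95% Wilson intervals and the number of genes in brackets; the dotted line is the share among all protein-coding genes (8.96%). The points of the metabolic and regulatory lists run from 8 of 25 genes (retinoid handling) to 26 of 34 (glucose, insulin and growth) with wide intervals, and each list of other cells holds at most 1 such gene.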

How the data were processed

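Chromatin of wild type mouse liver was sequenced after precipitation with antibodies against RXRα or RARα or without antibody (input), 1 library each, which formed the groups as titled in the labels. The deposited RXRα and input files hold a signal, that is whole-number coverage by extended reads in 32 bp bins, in which 1 read covers 5 bins. The total corresponds to 9999939 and 9999292 reads, near 10.00 M each. The deposited RARα file lists 143280 peaks, each with a score and a false discovery rate in percent, of which the 32946 with a score greater than 20 were used and the rate was not. The depth behind the RARα list is unknown. The submitters' processing notes name CASAVA 1.4, Bowtie and, for RARα, MACS. The methods of the study name a different build for alignment than for annotation, but the deposited files carry mm9, so NCBI37/mm9 sequence and GENCODE M1 genes were used throughout.

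Regions and clusters were computed as the report describes. Enrichment is the scaled RXRα signal over the larger of local and mean input (0.603 per bin). A gene was a dense cluster gene when its TSS was the nearest of 22380 protein-coding TSS to at least 1 region of a dense cluster. A cluster was named by the gene nearest to most of its regions. Motifs were searched on both strands within 100 bp of the summit and in windows 1 kb to either side, where overlapping motifs were each counted. Words of 31 bases starting at each bin of a region were counted over the whole genome on both strands. Named were the genes of the 20 highest clusters and the 5 with the most regions, the 5 highest and lowest RARα shares among the first 50, the clusters with the most DR1 and list members by cluster rank. The members and lists were chosen with earlier results of these data known. In all, 17 alternative settings were tried, and 1 more was added after the data were seen. Some genes that meet these rules are not reported here. Steps were tested on simulated data. Computations used Python 3.11.15, numpy 2.4.6, pandas 2.3.3, scipy 1.17.1, pysam 0.24.0 and matplotlib 3.10.9.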

Additional observations from a re-analysis of the deposited data

How the results depend on the processing

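The number of dense clusters and the share of all regions that they hold followed the settings of the rule. The number, 1401 in the report, was 2177 at 15 fold, 532 at 30 fold, 520 with a stitching gap of 5 kb, 729 when at least 8 regions were required, and 2476 when only the mean input was used. The share of all regions in dense clusters, 29.1% in the report, was 36.9% at 15 fold, 16.2% at 30 fold, 32.1% and 24.4% when bins were joined within 100 or 500 bp, 9.14% and 42.6% with gaps of 5 or 20 kb, 36.0% and 18.9% with at least 5 or 8 regions, 40.4% with the mean input, and 28.7% without the clusters of repeated sequence, a setting chosen after seeing the data. The share of their regions with a RARα peak, 32.2% in the report, was 29.7% at 15 fold, 37.0% at 30 fold and also with a gap of 5 kb, 30.5% with a gap of 20 kb, 31.3% and 33.8% with at least 5 or 8 regions, 31.2% with the mean input, 63.0% without a score threshold and 7.64% with a score greater than 50. In each of these settings the share among single regions was lower than in dense clusters. The share with a DR1, 1.47% in the report, was 1.25% with a gap of 5 kb and 3.22% with 1 mismatch. The share within 10 kb of a TSS, 42.4% in the report, was 43.3% at 15 fold, 41.3% when joining within 500 bp, 54.1% and 40.6% with gaps of 5 or 20 kb, 44.4% with the mean input and 50.1% when the TSS of all genes were used. Of the 20 highest clusters 13 remained when whole spans were summed. In the other settings tried, shares moved by less than their counting intervals, and numbers of clusters stayed within 1.5 times that of the report.

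No paired analysis was possible because each group has a single library and no comparison between groups was tested. At this depth a bin without input needs a signal of at least 13, so weaker RXRα binding was not detectable, and with a single library the spread between mice is unknown.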
